A study of Homo sapiens with 18 samples.

Results

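From 4 h to 8 h under sodium n-butyrate, phorbol ester and maslinic acid, 41 of 18417 genes measured in Raji cells were called as changed. Of these, 22 rose and 19 fell. The count depends on the arrays fitted. It was 0 with only the 6 arrays compared, without replicate 2 of 4 h, or without replicate 1 of 8 h. The largest rises were those of the membrane-binding protein gene ANXA2 and of GPNMB, a glycoprotein gene of lysosomes and melanosomes. The largest falls were those of RASSF6, the death receptor gene FAS, the zinc finger gene ZNF75A and the B cell signalling genes BLNK and GCSAM. None of the 41 genes passed the test again between 8 h and 12 h, and by size 9 of them had moved at least 0.5 further on the log2 scale by 12 h, 32 had held within 0.5 and 0 had come back by 0.5 or more. FAS and CLEC2D, which had fallen, were called as higher at 24 h than at 12 h. Each of these calls was lost when certain single arrays were left out.

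The comparison takes the 3 arrays harvested at 8 h and the 3 harvested at 4 h, 6 of the 18 arrays in the series, and every gene that has a probe set naming it alone. A gene with several probe sets is represented by the one with the highest mean over all arrays. Raji is an established line of human B cells from a Burkitt lymphoma that carries Epstein-Barr virus. According to the labels, cells in RPMI with fetal bovine serum were induced by phorbol ester (0.05 µM) together with sodium n-butyrate (3 mM) and received maslinic acid (19 µM), a plant triterpene. Harvests were made at 0, 4, 8, 12, 24 and 48 h, each with 3 arrays that the titles call biological replicates. The 0 h arrays carry the same treatment labels as the others, and no difference below uses them. Arms without maslinic acid or without the inducers were not analysed here, so every difference is one of time with all 3 compounds present, in 1 tumour line. The labels do not say whether the replicates came from separate cultures, and the p-values measure the spread between these arrays, which may be technical.

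Phorbol ester mimics diacylglycerol: it activates protein kinase C and, in B cells, RASGRP proteins, which load RAS with GTP and switch on ERK and the AP-1 transcription factors. Butyrate inhibits histone deacetylases and so raises histone acetylation, and the pair is a classical way to wake the latent virus in such lines. A germinal centre B cell, the cell that Burkitt lymphoma resembles, is held by B cell transcription factors, by signalling from its antigen receptor and by surface proteins that place it among T cells and follicular cells.

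All values are read as log2 intensities, on which 1 unit is a 2-fold difference. Levels are compared between arrays of a gene and not between genes, except in the rough look at cell type markers below. Medians of the 18 arrays lay between 4.03 and 4.25. Replicate 2 of 8 h stands apart as an array of compressed values, with an interquartile range of 2.37 where the other 17 had 2.74 to 3.16, and the lower quartiles of the 4 h and 8 h arrays were 2.91 to 3.24. The B cell marker MS4A1, which encodes CD20, had means of 9.90 at 4 h and 9.48 at 8 h, while BLK, of the same list, had 4.34 and 3.87. The 8 T cell, 8 monocyte, 8 epithelial, 8 fibroblast and 4 erythroid markers measured had mean levels of 3.01 to 3.98 on each of the 6 arrays, against 5.98 to 7.23 for 7 B cell markers. Of these markers, 0 were called at 8 h against 4 h. The highest of the other types were KRT18 (means 5.26 and 4.69) and COL1A1 (5.33 and 5.10), both above BLK.

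Of the 18417 genes, 41 were called at 8 h against 4 h (0.223%), at an adjusted p under 0.05 in limma's moderated test with Benjamini-Hochberg adjustment. The 22 genes that rose are 0.119% of those tested and the 19 that fell are 0.103%. At least a 2-fold change was seen in 28 of them (0.152% of genes tested), 14 in each direction. The 3 arrays of 8 h lay on 1 side of the 3 of 4 h for all 41, which also held for 876 of all genes above (4.76%) and 1796 below (9.75%), and the median difference over all genes was -0.04. The smallest adjusted p was 0.0102, and 1580 genes had an unadjusted p under 0.05. The spread behind the test came from all 18 arrays. With only the 6 arrays compared, 0 genes were called by limma (1304 at an unadjusted p under 0.05, smallest adjusted p 0.109). Without the 0 h arrays 39 genes were called, 24 higher and 15 lower, of which 32 are among the 41. The split by direction depends on the scaling: 53.7% of the calls were higher as deposited, 66.7% after quantile normalization (52 higher, 26 lower) and 78.1% with arrays centred on their medians (57 higher, 16 lower).

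The calls rest on few arrays. Without replicate 2 of 4 h, 0 genes were called by limma (1068 at an unadjusted p under 0.05) and the 41 genes had adjusted p of 0.0789 to 0.233. Without replicate 1 of 8 h it was also 0 (1587 at an unadjusted p under 0.05), with adjusted p of 0.0672 to 0.238 for the 41. Without replicate 1 of 4 h, 8 of the 41 kept the call: GPNMB, GLCE, AKAP11, TAF4B, RCSD1, SPARCL1, ZNF75A and FAS. Leaving out the compressed replicate 2 of 8 h gave 34 calls, 25 higher and 9 lower, of which 25 are among the 41. The 16 genes that lost the call without that array are ABCB1, DOCK4, FCHO2, ARHGEF12, TAF12, MCTP1, ECPAS, CAMK2D, SCMH1, RCSD1, OR13A1, KCNQ5, RASGRP3, GCSAM, BLNK and RASSF6.

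Upstream sequence is shown for 5 of the 41 genes, because a search of promoter windows found a match to TGANTCA in each. They are the 2 largest rises, the drug pump gene ABCB1 and the pair that fell and later rose. The mean of ABCB1 was higher again at each time to 24 h. The windows are from RefSeq on GRCh38.p14, 300 bases long, 250 before and 50 after a gene's start, and 37 of the 41 genes matched by symbol. The motif searched was TGANTCA, a loose form of the AP-1 site, where N is any base and the usual site has C or G. The matches of ANXA2 and GPNMB are TGAGTCA, of the usual form. Those of ABCB1 (TGATTCA), CLEC2D and FAS (both TGAATCA) have T or A there instead. The motif is its own reverse complement, and it overlapped no match to the other motifs searched in the 5 sequences. The 250 bases before the start are printed 5′ to 3′ in the direction of the gene, with the match in capitals.

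The ANXA2 stretch lies on the minus strand at chr15:60397987-60398236, and its match begins 127 bases before the start. The GPNMB stretch lies on the plus strand at chr7:23246525-23246774, with the match 134 bases before the start. For ABCB1, 1 of 2 windows holds the motif, on the minus strand at chr7:87600885-87601134, 234 bases before that start. The CLEC2D stretch is on the plus strand at chr12:9669463-9669712 and its match begins 45 bases before the start. For FAS, 1 of 3 windows holds the motif, on the plus strand at chr10:88990548-88990797, 242 bases before that start.
ANXA2: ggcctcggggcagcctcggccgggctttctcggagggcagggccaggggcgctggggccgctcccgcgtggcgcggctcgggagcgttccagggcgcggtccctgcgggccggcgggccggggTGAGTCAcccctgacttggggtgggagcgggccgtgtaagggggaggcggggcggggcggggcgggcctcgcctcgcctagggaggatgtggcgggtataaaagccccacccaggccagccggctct
GPNMB: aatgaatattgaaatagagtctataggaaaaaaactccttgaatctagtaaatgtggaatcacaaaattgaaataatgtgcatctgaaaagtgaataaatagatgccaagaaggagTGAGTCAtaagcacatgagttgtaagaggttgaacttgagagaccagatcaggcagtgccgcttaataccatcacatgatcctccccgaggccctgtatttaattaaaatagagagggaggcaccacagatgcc
ABCB1: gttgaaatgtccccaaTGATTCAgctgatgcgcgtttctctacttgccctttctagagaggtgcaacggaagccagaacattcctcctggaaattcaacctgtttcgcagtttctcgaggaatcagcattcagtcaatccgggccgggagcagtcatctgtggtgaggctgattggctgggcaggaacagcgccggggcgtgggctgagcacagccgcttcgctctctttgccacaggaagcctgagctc
CLEC2D: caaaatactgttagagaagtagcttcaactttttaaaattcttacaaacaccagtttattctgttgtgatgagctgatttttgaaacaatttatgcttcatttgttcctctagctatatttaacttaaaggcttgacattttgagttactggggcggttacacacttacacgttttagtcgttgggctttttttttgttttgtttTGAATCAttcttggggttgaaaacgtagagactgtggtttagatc
FAS: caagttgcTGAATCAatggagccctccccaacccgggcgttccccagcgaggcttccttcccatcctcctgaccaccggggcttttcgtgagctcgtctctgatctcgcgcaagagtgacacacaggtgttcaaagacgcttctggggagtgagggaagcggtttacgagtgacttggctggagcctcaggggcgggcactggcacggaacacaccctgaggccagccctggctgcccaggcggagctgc

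A TGANTCA match stood in a window of 5 of the 20 rising genes that have one (ANXA2, GPNMB, ABCB1, DOCK4 and MCTP1) and of 3 of the 17 falling genes (CLEC2D, FAS and ECPAS). Over all genes with a window it was 9.37% of 27305, and over all windows of that length 7.71% of 35116. The palindromic E-box CACGTG stood in 2 of 20 rising genes (SLC41A2 and TAF12) and 1 of 17 falling genes (TAF4B), against 8.77% of all genes. The cyclic AMP response element TGACGTCA was in TAF4B alone, against 2.25% of all genes. The octamer ATGCAAAT (2.19% of all genes), the PU.1 site GAGGAAGTG (1.34%) and the EGR1 site GCGTGGGCG (0.96%), searched on both strands, were in the windows of 0 of the 37. These matches describe the letters in the windows, and whether a factor binds there was not tested.

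Among the rising genes, ANXA2 encodes a calcium-dependent phospholipid-binding protein of the plasma membrane, endosomes and secretory vesicles. It stood at 5.35, 5.39 and 6.62 on the 4 h arrays and at 8.26, 7.45 and 8.20 on the 8 h arrays. The groups did not overlap, although replicate 3 of 4 h was over 1 unit above the other two. The difference was 2.18 (SE 0.34, 95% interval 1.46 to 2.90), a 4.53-fold rise, adjusted p = 0.0119. Its processed pseudogene ANXA2P2 went from 5.33, 4.83 and 5.91 to 7.43, 7.07 and 7.51, a rise of 1.98 (SE 0.30, adjusted p = 0.0102). The pseudogene is nearly identical in sequence to ANXA2, and the 2 probe sets may read the same transcripts, so they are not independent. Among the other 23 annexin and S100 genes measured, 0 were called, where 0.223% of all genes were. The list as a whole had a median of -0.10. The difference of S100A10, the partner of annexin A2, which is named here after its value was seen, was 0.66 (interval -0.23 to 1.56, adjusted p = 0.69).

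GPNMB was at 5.81, 5.21 and 5.22 at 4 h and at 7.95, 7.62 and 6.81 at 8 h, with replicate 3 the lowest of the later arrays and still above all earlier ones. It rose by 2.05 (SE 0.30), which is 4.13-fold, adjusted p = 0.0102. NPC1, the lysosomal protein that hands cholesterol out of the organelle, went from 6.43, 6.32 and 6.54 to 7.98, 7.70 and 7.82. Its arrays were tight within each time, and the rise was 1.40 (SE 0.25, adjusted p = 0.0190). These are the 2 of 41 measured lysosome and autophagy genes that passed, and 0 were called as falling. Of all genes, 0.223% were called. The list had a median of 0.15 (0.27 without replicate 2 of 8 h), with 28 members above 0, as were 7832 of all 18417 genes. For 10 of the 41 the 8 h levels were all above those of 4 h, a share to be read against 4.76% of all genes. The next by p were 2 subunit genes of the proton pump that acidifies lysosomes, ATP6V1D with a difference of 0.98 (adjusted p = 0.112) and ATP6V1A with 0.60 (adjusted p = 0.12), named after their values were seen. NPC1 was the 1 called gene of 24 in the cholesterol list, whose median was -0.13.

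Several of the other named rises are genes of transport and membrane traffic, a grouping made after the calls were seen and given with no test. EXOC6B, a subunit of the exocyst that tethers secretory vesicles, was at 4.02, 3.66 and 3.92 and then at 5.52, 5.25 and 5.36, and rose by 1.51 (SE 0.25, adjusted p = 0.0141). It was the 1 called of 32 exocyst and secretory vesicle genes, where 0.223% of all genes were called, and the list median was 0.05. The magnesium transporter gene SLC41A2 went from 7.48, 7.24 and 6.96 to 9.01, 8.52 and 8.37, a rise of 1.40 (SE 0.24, adjusted p = 0.0172). For both genes every 8 h array was well above every 4 h array. ABCB1, which encodes the P-glycoprotein pump that expels many drugs, stood at 5.34, 5.34 and 5.64 at 4 h and 6.81, 6.59 and 6.78 at 8 h. It rose by 1.29 (SE 0.26, adjusted p = 0.0447), with an adjusted p of 0.0592 when replicate number was a block and 0.0858 without replicate 2 of 8 h.

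SERPINI1, the gene of the protease inhibitor neuroserpin, was at 3.70, 3.21 and 3.37 at 4 h, close to the arrays' lower quartiles, and at 5.81, 4.97 and 4.77 at 8 h. It rose by 1.75 (SE 0.30), which is 3.37-fold, adjusted p = 0.0172, and a level near background at 4 h can make such a rise look smaller than it was. The rises of the next named genes were between 1.00 and 1.18. DOCK4, an exchange factor for small GTPases, differed by 1.10 (adjusted p = 0.0429), FCHO2, which starts clathrin-coated pits, by 1.07 (adjusted p = 0.028), and GLCE, an epimerase of heparan sulfate synthesis, by 1.06 (adjusted p = 0.0102). ERC1, a scaffold of vesicle docking sites, differed by 1.05, the phosphatase gene DUSP18 by 1.02, the GABA transaminase gene ABAT by 1.00 and the zinc finger gene ZNF701 by 1.18. GLCE was the most even of these, with 4 h arrays at 7.44, 7.28 and 7.37 and 8 h arrays at 8.68, 8.30 and 8.30. With replicate number as a block, ZNF701 and DOCK4 lost the call (both adjusted p = 0.0592).

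The remaining 7 rising genes differed by 0.76 to 0.96. They are ARHGEF12, PKNOX1, a homeodomain transcription factor, the glutamate transporter gene SLC1A1, TAF12, a subunit of the general factor TFIID, the C2-domain gene MCTP1, AKAP11, which anchors protein kinase A, and KIF16B, a kinesin of early endosomes. In the fit with a replicate block KIF16B was at adjusted p = 0.0592. No rising gene had a 4 h mean under 3.43.

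**Figure D1:**
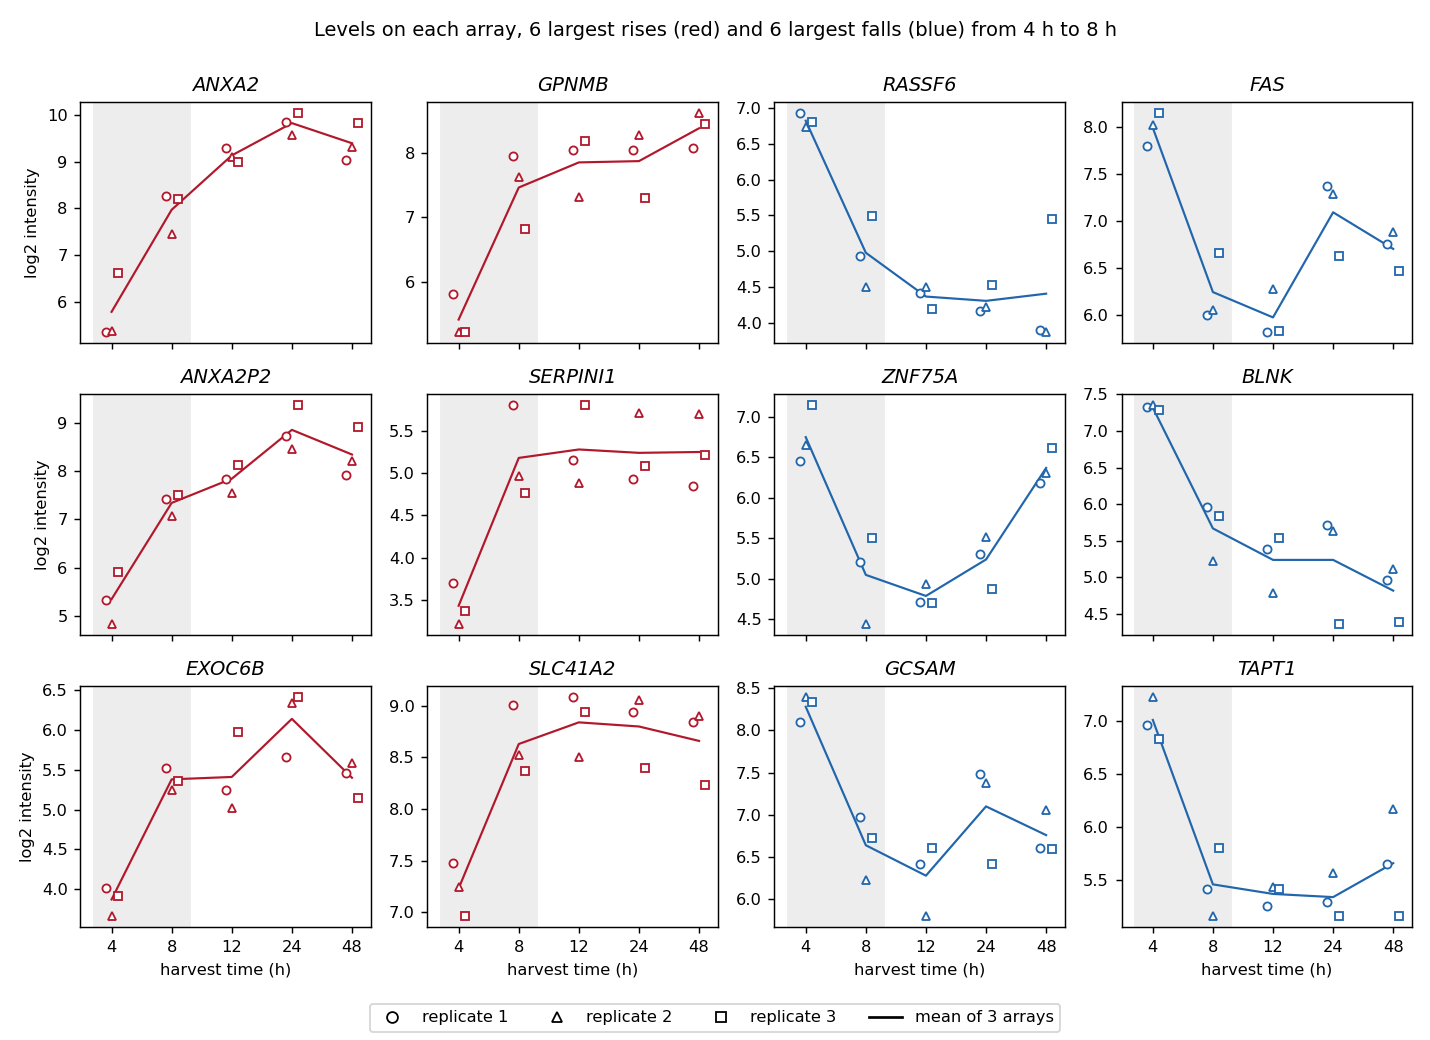
Log2 intensity of 12 genes on every array of 4, 8, 12, 24 and 48 h (times evenly spaced), with replicates 1, 2 and 3 as circles, triangles and squares and the line through the means; the 4 h and 8 h arrays are shaded. The 3 arrays of 8 h lie above those of 4 h in the 6 red panels (ANXA2, GPNMB, ANXA2P2, SERPINI1, EXOC6B, SLC41A2) and below them in the 6 blue panels, and FAS climbs again at 24 h.

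The falls took in 4 of the 37 measured genes of the germinal centre and B cell surface list. RASSF6, a member of the RAS-association family, dropped from 6.93, 6.73 and 6.80 to 4.93, 4.51 and 5.49. It fell by 1.84 (SE 0.34), which is 3.59-fold, adjusted p = 0.0298. GCSAM, a signalling adaptor of germinal centre B cells that restrains their motility, went from 8.10, 8.40 and 8.33 to 6.98, 6.23 and 6.72, and fell by 1.64 (SE 0.27, adjusted p = 0.0141). In both genes every 8 h array was more than 1 unit under every 4 h array and replicate 2 of 8 h was the lowest. Their adjusted p was 0.112 and 0.0523 without that array.

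CD84, a receptor of the SLAM family that binds itself on neighbouring lymphocytes, was at 6.91, 6.75 and 6.91 and then at 5.67, 5.10 and 5.91. CLEC2D, whose product is the ligand of the natural killer receptor CD161, was at 8.13, 8.08 and 7.53 and then at 6.58, 6.80 and 6.51. The 2 genes fell by 1.3 and 1.29, both with SE 0.21 and adjusted p = 0.0141. Neither lost the call without the compressed array, with adjusted p of 0.0446 and 0.0392. Each lost it without replicate 1 of 4 h (0.0776 and 0.085) or replicate 2 of 4 h (0.0789 and 0.0943). The same held without replicate 1 of 8 h (0.0672 and 0.0876).

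These 4 are the called members of 37 measured germinal centre and B cell surface genes, of which 0 were called as rising. Over all genes 0.223% were called. The list's median was -0.48, against -0.04 over all genes, and 32 members were below 0, as were 10585 of all 18417 genes. This list, like the other gene lists, was chosen with earlier results of these data known, so its values are no independent support. All 8 h arrays lay below all 4 h arrays for 14 of the 37 and above for 2, where 9.75% and 4.76% of all genes did. CCR7, the chemokine receptor that leads lymphocytes to lymph node T zones, had a difference of 0.53 (interval -0.72 to 1.77), and CD27 one of -1.09 (adjusted p = 0.213); both are named after their values were seen. The mean level over the 7 B cell markers was 6.73, 6.65 and 7.23 on the 4 h arrays and 6.52, 5.98 and 6.60 on the 8 h arrays, lowest on replicate 2 of 8 h. Without that array the median of the germinal centre list was -0.40 and that of the B cell markers -0.35, against -0.47 with it. Fewer RNA molecules of a gene per cell cannot be told apart from fewer cells that make it in such bulk samples.

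BLNK, the adaptor that couples the antigen receptor's kinase SYK to phospholipase C, was at 7.33, 7.36 and 7.29 at 4 h and at 5.96, 5.22 and 5.84 at 8 h. The 4 h arrays lay within 0.1 of each other, and the fall was 1.65 (SE 0.30), 3.15-fold, adjusted p = 0.0280 (0.106 without replicate 2 of 8 h). It was the 1 called of 30 receptor signalling genes, with 0 called as rising, 22 below 0 and a median of -0.30 (-0.24 without that array). Of all 18417 genes, 0.223% were called, 10585 were below 0 and the median was -0.04. Of 29 B cell transcription factor genes 0 were called by limma, the median was -0.36 (-0.17 without that array), and 24 were below 0. The members of smallest p were TCF3, with a difference of -0.82 (interval -1.32 to -0.32, adjusted p = 0.229), and IKZF3, with -0.98 (interval -1.58 to -0.38, adjusted p = 0.231).

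RASGRP3, the RAS activator of B cells that phorbol ester binds, stood at 8.78, 8.84 and 8.88 at 4 h and at 7.43, 7.13 and 7.77 at 8 h. All later arrays were more than 1 unit lower, and it fell by 1.39 (SE 0.27, adjusted p = 0.0429; 0.143 without replicate 2 of 8 h). Of 22 protein kinase C, RASGRP and diacylglycerol kinase genes it was the 1 called, where 0.223% of all genes were. The list's median was -0.07, which turned to 0.03 when arrays were centred on their medians.

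FAS, the receptor that starts the extrinsic death pathway, went from 7.80, 8.02 and 8.15 at 4 h to 6.0, 6.05 and 6.66 at 8 h. The nearest arrays of the 2 times were still more than 1 unit apart, and the fall was 1.75 (SE 0.27), 3.37-fold, adjusted p = 0.0102. It was the 1 called of 34 death receptor, BCL2 family and caspase genes (median -0.05, and 0.05 with centred arrays). FAS was also the 1 called of 22 p53 genes (median -0.17) and of 32 genes of the TNF ligand and receptor superfamilies (median -0.08, and 0.02 with centred arrays). These lists share FAS, so the counts repeat 1 gene and are not separate results. Of all genes, 0.223% were called.

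The other large falls belong to no signalling list. ZNF75A, a zinc finger gene, went from 6.45, 6.65 and 7.15 to 5.21, 4.44 and 5.50 and fell by 1.70 (SE 0.26, adjusted p = 0.0102). It is the 1 called gene with a second probe set, on which the difference was -1.06. TAPT1 went from 6.96, 7.23 and 6.83 to 5.42, 5.16 and 5.80, a fall of 1.55 (SE 0.24, adjusted p = 0.0102). SPARCL1, a secreted matrix protein gene, was at 8.71, 8.50 and 8.20 and then at 7.12, 7.12 and 7.44, and fell by 1.24 (SE 0.17, adjusted p = 0.0102). In all 3 genes every 8 h array was well below every 4 h array.

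Of the remaining named falls, the potassium channel gene KCNQ5 differed by -1.31, the olfactory receptor gene OR13A1 by -1.24, the ubiquitin ligase subunit gene FBXO4 by -1.12, RCSD1, whose product binds actin-capping protein, by -1.10 and the Polycomb gene SCMH1 by -0.97. A further 4 genes differed by -0.94 to -0.91: TAF4B, a TFIID subunit, KMO, an enzyme of tryptophan breakdown, the calmodulin kinase gene CAMK2D and ECPAS, a scaffold of the proteasome. TAF4B was among the most even, with 4 h arrays at 8.34, 8.42 and 8.43 and 8 h arrays at 7.59, 7.41 and 7.36 (adjusted p = 0.0102). With replicate number as a block, OR13A1 (adjusted p = 0.0539), KMO (0.0509), CAMK2D (0.0641) and ECPAS (0.0592) lost the call. Replicate 2 of 8 h held the lowest 8 h level for 14 of the 19 falling genes and for 11 of the 22 rising genes.

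**Figure D2:**
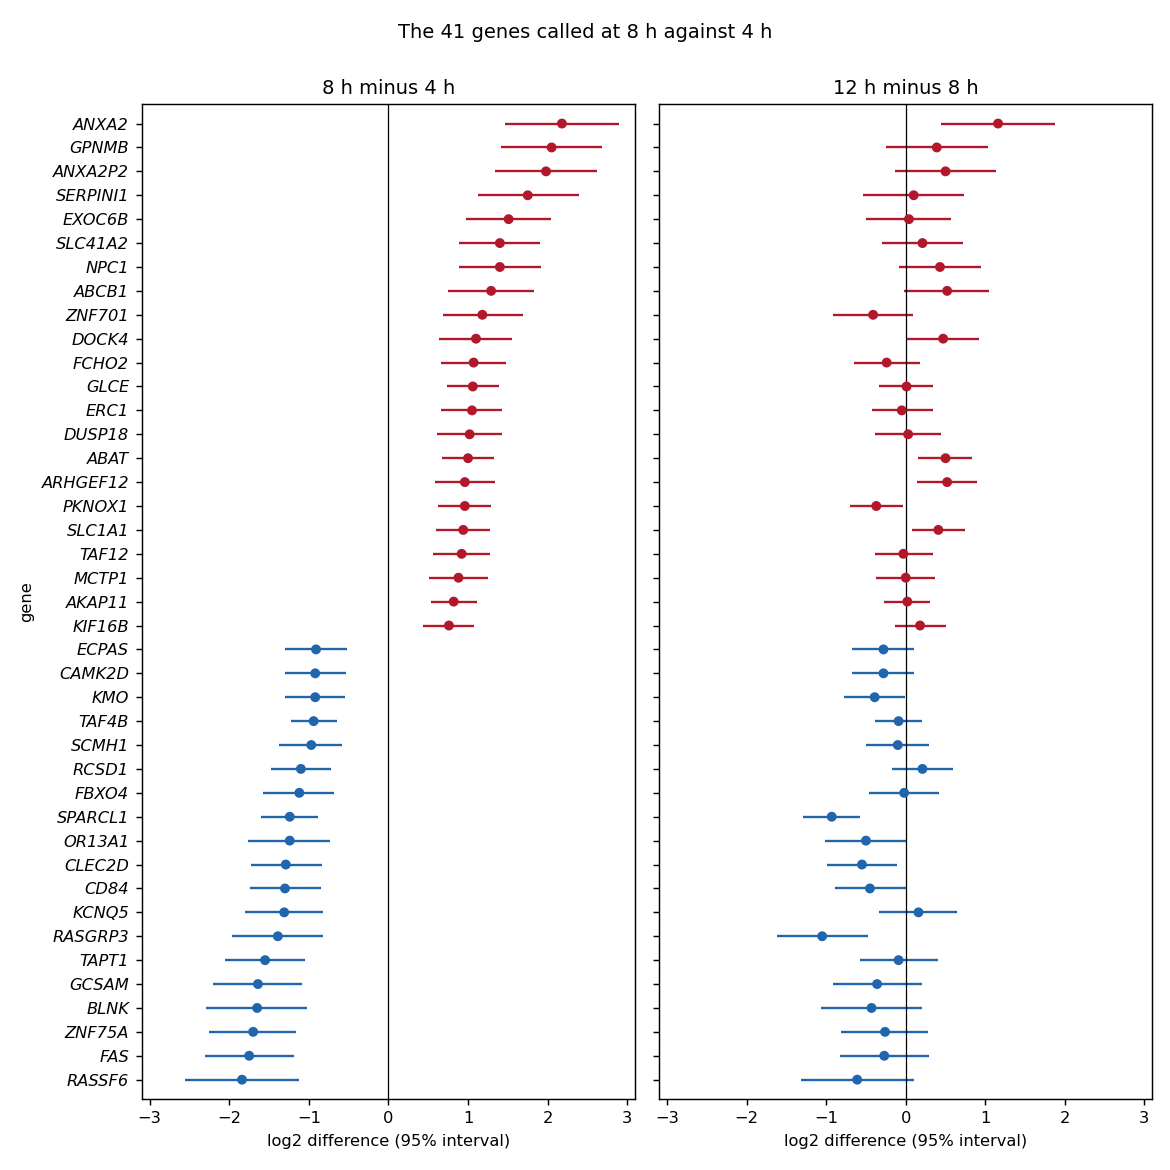
Log2 difference with its 95% interval for the 41 genes called at 8 h against 4 h, for 8 h minus 4 h (left) and 12 h minus 8 h (right), rising genes in red and falling genes in blue. The left intervals exclude 0 because the genes were chosen by that test; on the right most intervals include 0, with ANXA2 (1.16), SPARCL1 (-0.93) and RASGRP3 (-1.05) farthest from it.

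Gene groups known for the first response to the inducers are given as values, since at 0.223% of all genes called a count of 0 in lists of this size is at the background share. Of 26 immediate early and AP-1 transcription factor genes 0 were called by limma, and the median was -0.17 (-0.08 without replicate 2 of 8 h). All 8 h arrays lay below those of 4 h for 3 of the 26 and above for 0, where 9.75% and 4.76% of all genes did. EGR1, named after its value was seen, had means of 10.19 and 10.12, a difference of -0.07 (interval -0.77 to 0.63). By p the first members were FOSL1, with -0.43 (interval -0.79 to -0.08, adjusted p = 0.464), and SRF, with -0.42 (adjusted p = 0.563). Of 20 feedback inhibitors of ERK 0 were called, led by DUSP8 with -0.54 (adjusted p = 0.376) and SPRED1 with 0.54 (adjusted p = 0.493). Of 23 NF-kappaB genes 0 were called, with a median of -0.23 (-0.16 without that array).

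Counts were also 0 for MYC and ribosome biogenesis (33 genes, median -0.20), DNA replication (42, -0.17), mitosis (35, -0.17), CDK inhibitors and D-type cyclins (21, -0.16) and interferon response genes (30, -0.02, and 0.08 with centred arrays). Without replicate 2 of 8 h the medians of these lists were -0.07, -0.06, -0.10, -0.09 and -0.09, in the same order. The last list holds CXCL10, a chemokine gene, at 6.77, 6.69 and 5.32 at 4 h and 4.8, 3.92 and 4.22 at 8 h. Its groups did not overlap, and the difference of -1.95 had a wide interval (-3.23 to -0.67, adjusted p = 0.298). Among list members, the nearest to the threshold from outside were SPP1, the gene of the secreted phosphoprotein osteopontin, with 1.69 (interval 0.96 to 2.43, adjusted p = 0.0542), and SLC2A5, a fructose transporter gene, with -1.29 (interval -1.87 to -0.71, adjusted p = 0.0685). SPP1 was at 3.60, 4.10 and 3.23 at 4 h and 6.0, 5.11 and 4.90 at 8 h, again without overlap.

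**Figure D3:**
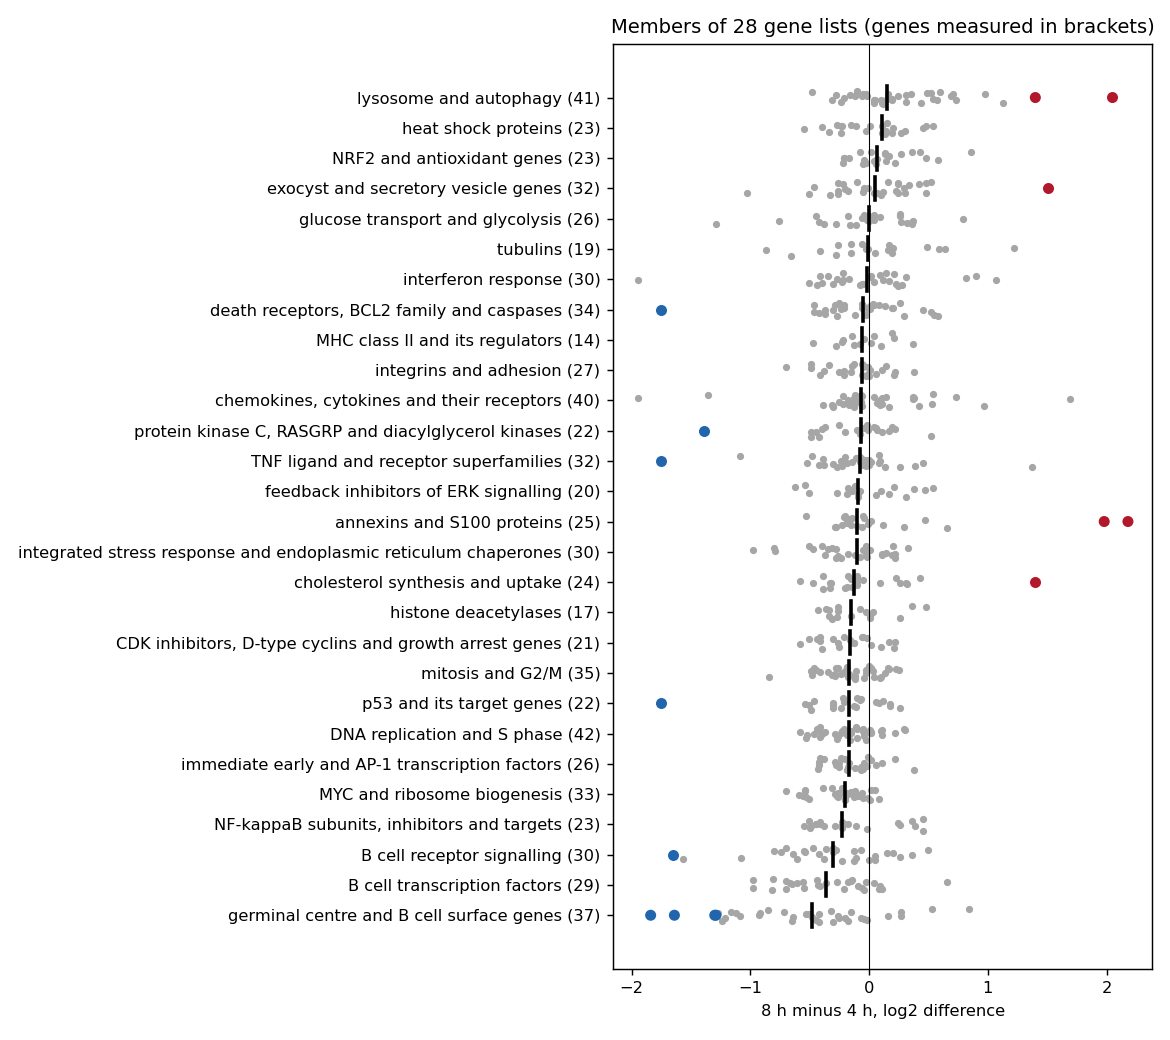
Log2 difference of 8 h minus 4 h for every measured member of 28 gene lists (one point per gene, number measured in brackets, black bar the list's median), with called genes in red or blue. The germinal centre and B cell surface list sits lowest, with a median of -0.48 and 4 called genes, and the lysosome and autophagy list highest, with a median of 0.15 and 2 called genes.

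What followed 8 h was read first in the step to 12 h. That step shares the 8 h arrays with the first one, so a chance deviation at 8 h enters both with opposite sign, and the values are given side by side with no test of likeness. At 12 h against 8 h 0 of 18417 genes were called by limma (0%; smallest adjusted p 0.707, 1221 genes at an unadjusted p under 0.05), and with weights per array 142 were called, 3 of them among the 41. ANXA2 stood at 9.28, 9.09 and 9.0 at 12 h, above all 8 h arrays, with a difference of 1.16 after the 2.18 of the first step. ANXA2P2 followed with 0.50, ABCB1 with 0.52 and ARHGEF12 with 0.52, which makes 4 of the 22 rising genes that went at least 0.5 further. RASGRP3 was at 6.24, 6.90 and 6.05 at 12 h, a difference of -1.05 after -1.39, and all 3 arrays were below those of 8 h. SPARCL1 had -0.93, RASSF6 -0.61, CLEC2D -0.55 and OR13A1 -0.50, so that 5 of the 19 falling genes went further.

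The other 32 genes, 18 rising and 14 falling, held within 0.5 of their 8 h mean. Held is a class by size and does not say that a gene stopped. Close to the limit, ABAT moved by 0.50 (interval 0.16 to 0.83) and DOCK4 by 0.47 (interval 0.02 to 0.92), both with adjusted p = 0.745. The median difference at 12 h against 8 h was 0.14 over the 22 rising and -0.28 over the 19 falling genes. GPNMB moved by 0.39, SERPINI1 by 0.10, EXOC6B by 0.04, SLC41A2 by 0.21 and NPC1 by 0.43 at 12 h against 8 h. FAS moved by -0.27, BLNK by -0.43, GCSAM by -0.36, TAPT1 by -0.09 and ZNF75A by -0.26. The nearest to a return were the rising genes ZNF701, with -0.41, and PKNOX1, with -0.37 (interval -0.70 to -0.03), and 0 genes came back by 0.5. For 12 h against 4 h, which shares the 4 h arrays and in which 1.58% of all genes were called, ZNF701 had an adjusted p of 0.143 and PKNOX1 one of 0.082.

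The later steps share no array with 8 h against 4 h. At 24 h against 12 h 252 of 18417 genes were called (1.37%), 150 higher (0.814%) and 102 lower (0.554%). Of the 41, 2 were called, both higher and both among the genes that had fallen: CLEC2D and FAS. CLEC2D was at 6.01, 6.35 and 5.88 at 12 h and at 6.98, 7.36 and 7.22 at 24 h, a rise of 1.11 (SE 0.21, adjusted p = 0.00994) with no overlap. By 48 h its arrays stood at 8.43, 8.24 and 7.60, and the mean of 8.09 was near the 7.92 of 4 h. Its adjusted p at 24 h exceeded 0.05 when replicate 1 of 12 h (0.0587), replicate 3 of 12 h (0.0661) or replicate 2 of 24 h (0.0597) was left out.

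FAS was at 5.81, 6.27 and 5.82 at 12 h and at 7.37, 7.28 and 6.62 at 24 h. It rose by 1.12 (SE 0.27, adjusted p = 0.0451), and its 24 h mean of 7.09 lay between those of 8 h (6.24) and 4 h (7.99). With replicate number as a block its adjusted p was 0.0533, and it lost the call without any 1 of 5 of the 6 arrays compared (adjusted p of 0.0553 to 0.222). Among the 19 falling genes the median difference at 24 h against 12 h was 0.35, with 15 above 0, while the median of all genes was -0.04. RASGRP3 had 0.78 (adjusted p = 0.239) and GCSAM 0.82 (adjusted p = 0.18), and SPARCL1 had -0.55 (adjusted p = 0.149).

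Among the 22 rising genes the median at 24 h against 12 h was 0.04. ANXA2P2 had a difference of 1.01 (adjusted p = 0.129), ABCB1 0.86 (adjusted p = 0.122), EXOC6B 0.73 (adjusted p = 0.234) and ANXA2 0.69 (adjusted p = 0.477). PKNOX1 had -0.61 (adjusted p = 0.074) and a 24 h mean of 5.11 beside 5.13 at 4 h.

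At 48 h against 24 h 74 genes were called (0.402%), and 0 of the 41 were among them. The rising genes had a median difference of -0.30, with 17 of 22 below 0, and the falling genes one of 0.19, where all genes had 0.03. The smallest adjusted p among the falling genes were those of ZNF75A, with a difference of 1.13 (adjusted p = 0.0718), and CLEC2D, with 0.90 (adjusted p = 0.0755). At 48 h ANXA2 was at 9.04, 9.30 and 9.83, GPNMB at 8.07, 8.62 and 8.44 and ABCB1 at a mean of 8.03, all above each of their 8 h arrays. SPARCL1, with a mean of 5.46, and BLNK, with arrays at 4.97, 5.11 and 4.39, lay below each of their 8 h arrays.

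**Figure D4:**
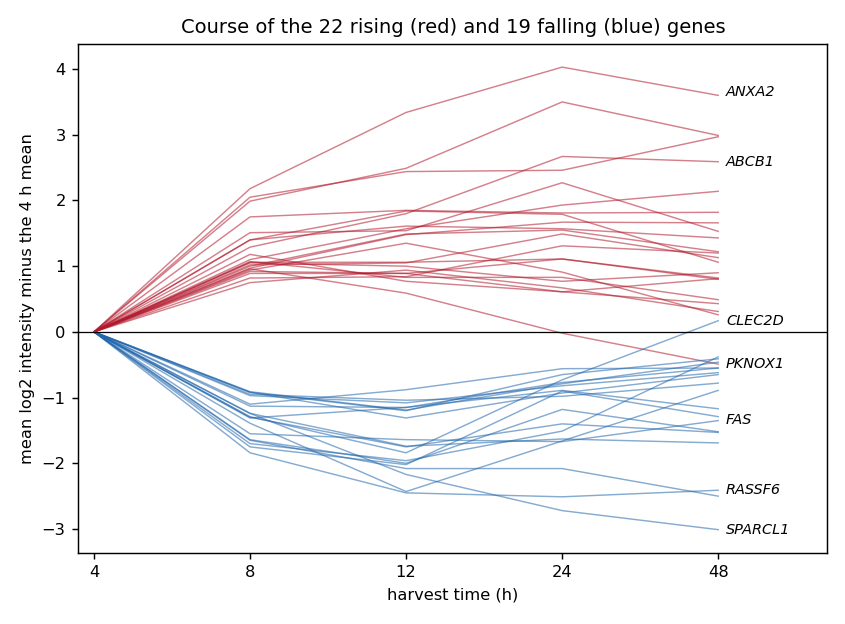
Mean log2 intensity at 4, 8, 12, 24 and 48 h minus the 4 h mean (times evenly spaced) for the 22 rising genes in red and the 19 falling genes in blue, each line the mean of 3 arrays with no error shown. ANXA2 and ABCB1 stay far above their 4 h level, SPARCL1 and RASSF6 far below, and CLEC2D and PKNOX1 end near or past it on the other side.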

How the data were processed

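The authors deposited 1 table of 33297 probe sets on 18 arrays. The deposited values were taken to be log2 intensities normalized between arrays, judged only from their range and the arrays' like medians, and were used unchanged. No label states either, and the interquartile ranges of the arrays ran from 2.37 to 3.16. Software and method are not given in the sources used here. Of the probe sets, 19460 name 1 gene, giving 18417 genes; 1754 name several and 12083 are not named here. limma 3.58.1 (R 4.3.3) fitted a group-means model to the 18 arrays (12 residual and 5.58 prior degrees of freedom), with Benjamini-Hochberg adjustment over all genes in each comparison and a threshold of 0.05. The number of arrays limits the precision, with a median SE of 0.20. The fitting script was tested on simulated data.

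Named were the 15 largest rises and falls among called genes with no overlap, the other called genes by range, and each list's called members or, without any, up to 2 of smallest p. Members, 34 gene lists and tests were chosen with earlier results of these data known, and the promoter motifs after the calls. Same-numbered 4 h and 8 h arrays deviated together (correlations 0.175, 0.349 and 0.600, all over 0.1), so a fit with replicate number as a block was treated as a paired analysis. The pairing rests on the values, since the labels give only the numbers, and replicate 1 of 4 h correlated slightly more with replicate 2 of 8 h (0.213). Alternatives covered scaling, probe set choice, arrays fitted, array weights and each array left out. Promoter windows are RefSeq's on GRCh38.p14. Tables and plots were made in Python 3.11.15 (pandas 2.3.3, matplotlib 3.10.9).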

Additional observations from a re-analysis of the deposited data

How the results depend on the processing

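At 8 h against 4 h the count of 41 became 78 after quantile normalization, 73 with arrays centred, 0 when only the 6 arrays compared were fitted by limma (1304 at an unadjusted p under 0.05, smallest adjusted p 0.109), 1039 with array weights, 99 with the interquartile range as covariate and 27 with an intensity trend. Leaving out 1 array gave 0 to 43. The array weights at 8 h were 5.184, 0.246 and 0.827 for replicates 1, 2 and 3. The fit with a replicate block also called 41, of which 33 are shared; the 8 of the 41 that lost the call are given beside the genes. At 12 h against 8 h the count of 0 became 142 with array weights and 2 with the covariate. At 24 h against 12 h, 252 became 1099 with array weights and 105 to 335 with 1 array left out. At 48 h against 24 h, 74 became 10 with 6 arrays, 206 with array weights and 35 to 258 with 1 array left out. Of the 41, the number that came back by 12 h was 2 with arrays centred, 1 with array weights and 0 to 1 with 1 array left out, and the number that went further was up to 14. Over the 12 settings and 6 arrays left out, 738 differences of the 41 genes were recomputed: 493 kept the call and 245 lost it. The settings on probe set choice kept 41, 39 and 41 calls, but of the 41 genes only ZNF75A has a second probe set. For the other called genes these settings reuse the same values, so those kept calls say little. The direction was largely fixed by the choice of genes, which passed the test at 8 h against 4 h and whose arrays do not overlap. The causes were not tested. Dim genes are limited by background, and 3 arrays per time limit the rest.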

Other observations

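Zinc finger genes of the ZNF family, most of them transcriptional repressors or of unknown role, had 1 rise (ZNF701) and 1 fall (ZNF75A) among 482 measured. Their median difference at 8 h against 4 h was 0.06 where all genes had -0.04. All 3 arrays of 8 h lay above those of 4 h for 48 of the 482 and below for 24, where 4.76% and 9.75% of all genes did. Over all genes 0.223% were called.

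A further 9 lists with 0 calls by limma at 8 h against 4 h, where 0.223% of all genes were called, had these medians: 17 histone deacetylase genes (-0.15), 30 genes of the integrated stress response (-0.10), 23 heat shock genes (0.11), 23 NRF2 and antioxidant genes (0.07), 26 genes of glucose transport and glycolysis (0.00), 40 chemokine and cytokine genes (-0.07), 27 integrin and adhesion genes (-0.06), 14 MHC class II genes (-0.06) and 19 tubulin genes (-0.01). Without replicate 2 of 8 h the median of the deacetylases was -0.01, that of the heat shock genes 0.03 and that of the antioxidant genes 0.23. The deacetylase genes of smallest p were HDAC6 with -0.36 (adjusted p = 0.612) and SIRT1 with 0.36 (adjusted p = 0.557). TUBB2A, a beta tubulin gene, was at 7.81, 7.39 and 8.28 at 4 h and 9.49, 8.74 and 8.90 at 8 h, a difference of 1.22 (interval 0.50 to 1.94, adjusted p = 0.213) with no overlap. HERPUD1, a gene of the endoplasmic reticulum stress response, was at 9.40, 9.63 and 9.88 and then at 8.87, 8.79 and 8.86, a difference of -0.80 (interval -1.34 to -0.25, adjusted p = 0.329), and BAG3, a co-chaperone gene, differed by 0.54 (adjusted p = 0.451).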
